A study of Mus musculus with 8 samples.

Results

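Neutrophil progenitors are the bone marrow cells that have entered the path to neutrophils and are filling their earliest granules with enzymes. Here they were chosen by their own transcripts, as cells with at least 10 unique molecular identifiers (UMIs, each standing for 1 captured RNA molecule) of Elane, at least 1 UMI of Cebpe, 0 UMIs of Irf8 and of Ms4a2, and fewer than 30 UMIs of Camp, Ngp and Ltf together. The rule found 729 of 29891 cells, or 2.44%. These genes therefore describe how the cells were picked, and their levels in the class are not findings.

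The cells came from a droplet RNA sequencing experiment on bone marrow of female C57BL/6 (B6) mice aged 3 to 4 months. All the mice began in specific-pathogen-free (SPF) housing, which the SPF group did not leave. The CVT group later spent 1 month with other mice under conventional conditions. By the labels each group had 10 mice in 4 pools of 2 or 3 animals, so the pool is the replicate and differences between single mice cannot be seen. The sorted cells carried CD117 (c-Kit) and lacked lineage markers, among them GR1 and CD11b, which neutrophils gain as they mature, so the sort itself limits how many later neutrophils could be captured.

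Neutrophils are made from granulocyte-monocyte progenitors through the promyelocyte stage. The granules formed at that stage, called azurophil or primary granules, hold myeloperoxidase and serine proteases, while the specific or secondary granules that follow hold lactoferrin and cathelicidin. The transcription factor Cebpe is needed for the later granule genes, and Irf8 directs the sister fates of monocytes and dendritic cells.

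SPF pools 1, 2, 7 and 8 gave 22, 56, 41 and 106 neutrophil progenitors. CVT pools 3, 4, 5 and 6 gave 130, 132, 110 and 132. SPF pool 1 had the fewest cells and CVT pools 4 and 6 had the most, so values for SPF pools 1 and 7 rest on the thinnest data. Summed over the class, SPF pool 1 held 340762 UMIs, the fewest, while CVT pool 4 held 2385332, the most. A neutrophil progenitor held a median of 15897 UMIs and 3343 genes, against 8964 UMIs and 2587 genes over all cells. Among 29365 distinct cell barcodes, 522 occurred in more than 1 pool and 18 neutrophil progenitors shared theirs with a cell of another pool, but 0 barcodes were a neutrophil progenitor in 2 pools. Pools were read from the number that ends each cell's name, matched to the number in the sample descriptions. Nothing else in the data files fixes this match, and each CVT or SPF value rests on it. It gives 12331 SPF and 17560 CVT cells, close to the numbers of captured cells in the study's methods for each group. Those totals do not fix the order of pools within a group.

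In all, 4856 cells had 10 or more Elane UMIs, and most were not neutrophil progenitors. The others were each put in 1 group, in this order: 127 with Ms4a2, a marker of basophils and mast cells, 155 with 30 or more UMIs of Camp, Ngp and Ltf, 3645 with Irf8, and 200 with neither Cebpe nor Irf8. Irf8 was therefore not confined to the 3645 cells, and 22.6% of the 155 carried it. Few cells lay near the Elane threshold: 3 members had 10 or 11 Elane UMIs and 4 cells that met the rest of the rule had 8 or 9. The Cebpe and Irf8 thresholds divided denser ground. There were 145 members (19.9%) with 1 Cebpe UMI against 200 cells with none, and 251 cells stayed outside for 1 Irf8 UMI. At the granule limit, 4 members had 20 to 29 UMIs of Camp, Ngp and Ltf and 3 cells outside had 30 to 39.

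The markers that the rule did not use fitted the name. Ms4a3, a membrane protein of granulocyte-monocyte progenitors, had a UMI in 99.2% of the class, the glutathione transferase gene Gstm1 in 95.2% and the immunoglobulin G receptor gene Fcgr3 in 87.4%. In erythroid cells of the same pools (4178 cells with at least 5 UMIs of Car1 and 1 of Ermap, median 18553 UMIs), taken here as a measure of background, the shares were 20.3%, 23.2% and 4.48%. They were 90.8%, 77.2% and 60.4% in the Elane cells with Irf8, so these markers do not by themselves set the class apart from that group, where median UMIs were 7, 2 and 1 against 28, 8 and 3. Levels of Ms4a3 in plain CPM, the summed UMIs of the class scaled to a common total per pool, were 2042, 1922, 1880 and 1978 in SPF pools 1, 2, 7 and 8 and 1862, 1756, 1750 and 1878 in CVT pools 3 to 6. Each SPF pool was above the CVT pools on this scale, by a narrow margin, while after TMM normalisation the groups overlapped (1910 to 2005 and 1776 to 1928).

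Elane, Ms4a3 and Rgcc led the class. Of 14035 genes with a UMI in it, 1281 averaged 100 CPM or more, and 68 of those were at least 2-fold, 14 at least 5-fold and 3 at least 10-fold above all cells outside the class (5 CPM added to both means). These ratios are descriptions without a test, because the cells were chosen by values of the same kind. Elane, neutrophil elastase, stood at 13665 CPM ± 1176 (SD, n = 8 pools), which was 12.7-fold above the rest. Ms4a3 followed at 12.2-fold and Rgcc, a regulator of the cell cycle, at 10.1-fold.

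The other serine proteases and myeloperoxidase were nearly as abundant as each other. Mpo averaged 6394 CPM ± 565 (SD, n = 8), Ctsg, cathepsin G, 6381 ± 238, and Prtn3, proteinase 3, 5941 ± 350. As these are counts of transcript ends, they can be set side by side without a correction for gene length. Mpo reached 7125 and 6987 CPM in CVT pools 3 and 4 but 5713 and 5624 in CVT pools 5 and 6. In SPF pools 1, 2, 7 and 8 it was 6312, 6876, 6341 and 6173. CVT pools 5 and 6 were thus the lowest and CVT pools 3 and 4 the highest, with the SPF pools in between.

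The other leading genes had several roles. Nkg7, a granule membrane protein, averaged 1602 CPM, and Cd63, a tetraspanin of azurophil granule membranes, 1030. Prss57, a further serine protease of neutrophils, was 7.87-fold above the rest, Gstm1 7.46-fold, Ctsg 6.71-fold, Fcgr3 6.30-fold, Alas1, the entry enzyme of heme synthesis, 5.79-fold and Cst7, an inhibitor of cathepsins, 4.75-fold. The list of 20 also held Dmkn (7.10-fold), Cebpe (5.88-fold), Trem3 (5.22-fold), Mpo (5.15-fold), Prtn3 (4.82-fold), Pde4d (4.61-fold), Igsf6 (4.27-fold), Fkbp11 (4.24-fold) and Hdc (4.16-fold). Each of these 20 genes was higher in the class than in the Elane cells with Irf8 in 8 of 8 pools, as a description, because Elane and Cebpe are genes of the rule and all 20 were picked for high levels over a rest that holds those cells.

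**Figure D1:**
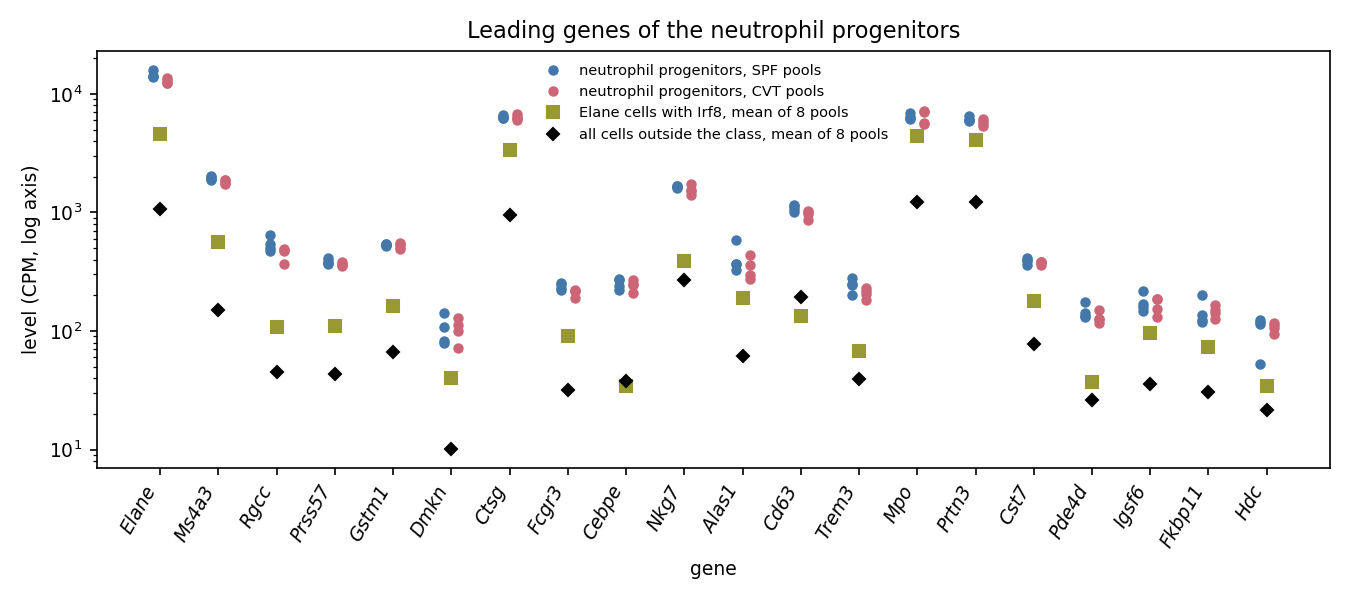
Level of the 20 leading genes in the neutrophil progenitors of each pool (circles, SPF blue and CVT red), with the mean of 8 pools in Elane cells with Irf8 (squares) and in all cells outside the class (diamonds), in plain CPM on a log axis. The pools of the class lie above both means for each gene, and for Cd63 (133 and 193 CPM) and Cebpe (34.5 and 37.9) the mean in Elane cells with Irf8 lies below that of all cells outside the class.

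The Elane cells with Irf8 were the largest other group of Elane cells, and the genes differed in how far they set both apart. Cd63 averaged 1030 CPM in neutrophil progenitors and 133 in Elane cells with Irf8, a ratio of 7.48. The ratio was 4.47 for Rgcc and 4.11 for Nkg7, but 1.46 for Mpo and for Prtn3, which both kinds of progenitor make. Transcripts of the repressor Gfi1 were found in 43.9% of neutrophil progenitors and 15.4% of Elane cells with Irf8. The progenitor surface marker Cd34 ran the other way, with 63.0% and 91.9%, while c-Kit transcripts were alike at 52.7% and 50.3%. Median depth was 15897 and 16684 UMIs. The 200 Elane cells without Cebpe and Irf8 lay nearer to the class for several genes, with 491 CPM of Cd63, 852 of Nkg7 and 5698 of Mpo, and with Cd34 in 79.5%.

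The promoters of the 4 most abundant azurophil enzymes are shown because these transcripts rise and fall together among the cells, as given below. Each is the 250 bases before the start of the gene in RefSeq (build GRCm38.p6), read 5' to 3' on the strand of the gene, with GAGGAA on either strand in capitals, a sequence that holds the core of sites bound by PU.1 and other ETS factors. Elane lies at chr10:79886062-79886311 (plus strand), Prtn3 at chr10:79879417-79879666 (plus strand), Mpo at chr11:87793534-87793783 (plus strand) and Ctsg at chr14:56102575-56102824 (minus strand).
Elane: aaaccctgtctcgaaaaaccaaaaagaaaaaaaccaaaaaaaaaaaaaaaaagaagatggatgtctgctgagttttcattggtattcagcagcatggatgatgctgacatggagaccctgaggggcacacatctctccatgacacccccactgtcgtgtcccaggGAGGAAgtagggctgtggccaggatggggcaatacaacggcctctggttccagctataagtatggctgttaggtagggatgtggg
Prtn3: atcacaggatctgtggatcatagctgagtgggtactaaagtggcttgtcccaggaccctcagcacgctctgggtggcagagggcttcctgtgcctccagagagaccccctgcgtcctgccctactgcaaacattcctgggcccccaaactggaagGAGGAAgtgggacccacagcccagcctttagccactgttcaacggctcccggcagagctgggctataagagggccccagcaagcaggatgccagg
Mpo: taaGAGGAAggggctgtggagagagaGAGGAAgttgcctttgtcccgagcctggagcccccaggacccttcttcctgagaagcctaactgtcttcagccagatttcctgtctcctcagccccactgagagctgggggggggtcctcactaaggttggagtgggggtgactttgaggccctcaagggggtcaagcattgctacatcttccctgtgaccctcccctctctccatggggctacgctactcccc
Ctsg: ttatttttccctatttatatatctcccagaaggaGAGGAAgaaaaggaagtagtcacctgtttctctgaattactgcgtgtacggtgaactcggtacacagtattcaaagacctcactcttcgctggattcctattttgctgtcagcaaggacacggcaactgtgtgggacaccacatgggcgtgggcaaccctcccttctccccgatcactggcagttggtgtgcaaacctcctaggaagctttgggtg

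Of the 20 leading genes, 17 were matched to the promoter table, with 23 listed starts. GAGGAA was present before at least 1 start of 9 of the 17 genes and in 10 of the 23 windows, against 23.3% of 32851 promoters of the same length. AGAGGAAG, a longer form that overlaps it, was found for 3 of 17 genes (3.67% of all promoters), and TTGCNNAA, a pattern of C/EBP sites, for 2 of 17 (9.56%). With the 50 bases after the start added, the counts were 10, 3 and 4 of 17, against 28.3%, 4.55% and 10.8%. These matches describe letters, and binding was not analysed here.

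Within the class, several azurophil transcripts varied together from cell to cell. After each of the 729 cells was thinned to 3620 UMIs, Elane ranged from 12 UMIs at the 10th percentile to 87 at the 90th (median 46), a wider spread than that of Mpo (12 to 34, median 23). Spearman's rho with Elane was 0.69 for Prtn3, 0.63 for Ms4a3, 0.62 for Ctsg, 0.51 for Gstm1 and 0.45 for Mpo. It was 0.48 for S100a8, a calcium-binding protein that accumulates in maturing neutrophils, and -0.37 for Cd34. Calr, also in the azurophil list, gave -0.22 with Elane, -0.20 with Prtn3 and 0.14 with Mpo. Cells with more Elane thus had more of those 6 genes, and less Cd34 and Calr. Elane and Cebpe gave 0.18, where Cebpe had a median of 1 UMI. These are descriptions over cells that share pools and were selected on Elane and Cebpe.

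S100a8 was the most unevenly spread of the 14 genes followed. Its thinned counts had a variance 61.3 times their mean, against 15.4 for Elane, with a median of 2 UMIs and a 90th percentile of 11. S100a8 went with Fcnb, a ficolin of granules (rho 0.40), and against the chaperone gene Calr (rho -0.33). In the 4 members with 20 to 29 UMIs of Camp, Ngp and Ltf, the median was 527 S100a8 UMIs before thinning, against 9 in the class.

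Camp, Ngp and Ltf, the specific granule genes that the rule limits, were about as frequent in the class as in erythroid cells. Camp, cathelicidin, had a UMI in 77.1% of the class and 72.7% of erythroid cells, Ngp in 70.1% and 66.9%, and Ltf, lactoferrin, in 15.6% and 20.1%. Mean Camp levels were 118 CPM in the class and 185 in erythroid cells. These values are a description, and the part of free RNA in them was not tested. Anxa1 and the leukotriene receptor gene Ltb4r1 of the specific granule list were more frequent in the class, at 86.6% against 16.9% and 69.96% against 6.70%. Chil3 was not, with a UMI in 18.1% of the class and 18.2% of erythroid cells. S100a8 and Wfdc21 did not follow that ratio. The ratio of mean S100a8 to mean Camp was 15.3 in the class, 5.36 in Elane cells with Irf8 and 3.31 in erythroid cells, and Wfdc21 averaged 174, 18.9 and 20.3 CPM. The S100a8 mean of the class rests partly on few cells, since the 19 members with 10 to 29 UMIs of Camp, Ngp and Ltf had a median of 133 S100a8 UMIs, against 6 in the 239 members with 1 or 2 and 9 in the whole class. Fcnb averaged 51.2, 6.09 and 1.91 CPM in the same order and had a UMI in 17.3% of the class and 2.18% of erythroid cells.

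**Figure D2:**
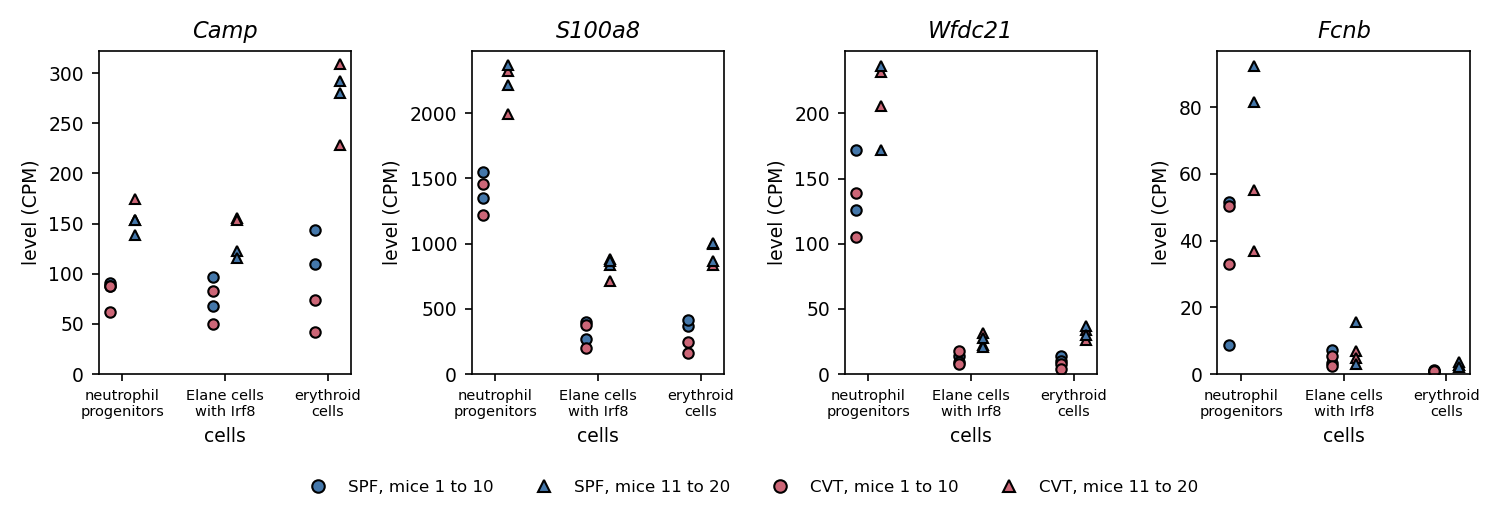
Level of Camp, S100a8, Wfdc21 and Fcnb in plain CPM (vertical axes, from 0) in neutrophil progenitors, Elane cells with Irf8 and erythroid cells, with 1 point per pool, circles for the pools of mice 1 to 10 and triangles for those of mice 11 to 20. Camp averages 118, 106 and 185 CPM in the 3 kinds of cell, and S100a8 1808, 567 and 612.

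Levels were also summed over lists of genes by function. The rule bears on the granule sums, since it asks for Elane and limits Camp, Ngp and Ltf, for which the cells above the granule limit were picked. The 16 azurophil genes, of which Bpi was at 0, summed to 42449 CPM ± 1861 (SD, n = 8), against 21333 in Elane cells with Irf8 and 29680 in the Elane cells with 30 or more UMIs of Camp, Ngp and Ltf. Elane alone made up 32.2% of that sum. The 15 specific granule genes summed to 1152 CPM, led by Cyba of the NADPH oxidase at 475, against 89675 in the cells above the granule limit, of which Camp was 45312 and Ngp 27637. For 15 genes of late neutrophils the sums were 2982 and 190684 CPM. Most of the former was S100a8, at 1808 CPM, followed by S100a9 at 646, Slpi at 201 and Wfdc21 at 174.

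Secretory genes were abundant in the class and in some other Elane cells. The 17 genes of the endoplasmic reticulum list summed to 9427 CPM in the class, 9467 in Elane cells without Cebpe and Irf8, 7831 in Elane cells with Irf8 and 3600 in cells without 10 Elane UMIs, led by Calr (1828 CPM), the translocon subunit Sec61b (1654) and Ssr4 (890). Ribosome biogenesis genes summed to 6066 CPM in the class and 6657 in Elane cells with Irf8, with Npm1, Nop10 and Ncl at 1968, 1144 and 1043. S-phase genes summed to 2379 and 2723 CPM in the same cells, and G2/M genes, led by Cks2 at 612, to 1825 and 1824.

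Receptors and transcription factors were summed too. The list of 19 cytokine and surface receptors summed to 3198 CPM, against 2153 in Elane cells with Irf8, and was led by Cd63, Ly6c2 (851 CPM) and the inhibitory lectin receptor Clec12a (624). The 16 granulocyte transcription factors in the table summed to 1253 CPM and to 1427 in Elane cells with Irf8, but the rule sets the order of these sums through Irf8 (0 and 435 CPM) and Cebpe (247 and 34.5). Among the others were Myb at 271, Spi1 (PU.1) at 222 and Xbp1, a regulator of secretory capacity, at 121. Myb averaged 180 CPM in Elane cells with Irf8 and Spi1 220. The 6 NADPH oxidase genes summed to 1107 CPM, with Cyba, Rac2 (406) and Ncf4 (75.8) as the most abundant.

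Lists for inflammation and stress were summed in the same way. Microbial sensing genes summed to 229 CPM, led by Nfkbia (50.7), and were 225 in Elane cells with Irf8. Interferon-stimulated genes summed to 501 and 825 CPM, with Ifitm3 at 196 in the class and 465 in Elane cells with Irf8. Survival and death genes summed to 522 and 662, led by Bax at 155. Heat shock genes summed to 7011 and 7927, led by Hsp90ab1 at 2235, and the AP-1 and immediate early genes to 475 and 619, led by Jun at 126.

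Markers of other lineages were also summed, and the class was below the Elane cells with Irf8 for some lists and above them for others. Monocyte markers summed to 133 CPM in the class and 1554 in Elane cells with Irf8, with Ms4a6c the most abundant at 48.1 and Fcgr1 and, by the rule, Irf8 at 0. Basophil and mast cell markers summed to 281 CPM, against 126 in Elane cells with Irf8 and 265 in cells without 10 Elane UMIs, with Ms4a2 (by the rule), Cma1 and Tpsb2 at 0. Their most abundant genes were Hdc, the enzyme that makes histamine, at 105 CPM and Cpa3, a mast cell carboxypeptidase, at 100.3. A Cpa3 UMI was present in 28.0% of the class and 10.03% of erythroid cells. The part of cells on the way to basophils in the class was not tested.

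Dendritic cell markers summed to 893 CPM, of which Cst3 was 687, with Xcr1 at 0. Erythroid markers summed to 548 (Apoe 137), stem and multipotent markers to 348 (Cd48 153), megakaryocyte markers to 144 (Cd9 98.1; 72.4 in Elane cells with Irf8), lymphoid and B cell markers to 57.6 (Cd79b 39.8, with Cd3e and Cd3g at 0) and eosinophil markers to 32.2 (Siglecf 14.9, with Ear1 and Ear6 at 0; 9.35 in Elane cells with Irf8 and 16.7 in cells without 10 Elane UMIs). Eosinophil markers were unevenly held, with 81.8 and 57.2 CPM in CVT pools 5 and 6 and 11.6 to 25.2 in the other 6 pools.

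The study asked how conventional housing changes blood formation, and for this class the first measure is its share of cells. Neutrophil progenitors made up 1.17%, 1.46%, 1.99% and 2.34% of the cells of SPF pools 1, 2, 7 and 8. They made up 2.68%, 3.16%, 2.53% and 3.14% of CVT pools 3, 4, 5 and 6. No SPF pool reached the lowest CVT pool. The mean was 2.88% ± 0.320 in CVT and 1.74% ± 0.526 in SPF mice (SD, n = 4), a ratio of 1.66 (exact permutation test, two-sided p = 0.0286, the smallest that 4 against 4 pools allow). Adjusted over the 3 values per pool that were planned, of which 1 rests on genes of the rule and is given below as a description, p was 0.0857 (exact permutation test), which does not pass 0.05.

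The difference was also taken within each set of pools. By the labels, mice 1 to 10 went into pools 1 to 4, and mice 11 to 20 into the other 4, with 2 pools of each group in either set. Mean shares were 2.92% in CVT and 1.31% in SPF within the former set, and 2.84% and 2.16% within the latter. The gap was wider in the former set, and whether it differs between the sets was not tested. Permuted within these sets, the exact test gave p = 0.0556, the smallest it allows there.

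The share was also taken at equal depth. The median UMIs per cell over all cells were 9792 ± 2237 in CVT and 8188 ± 735 in SPF pools (SD, n = 4), and those of the class 15575 ± 1686 and 16682 ± 1328. With every cell thinned to 2759 UMIs, the shares were 1.85% ± 0.333 and 1.24% ± 0.322, CVT pool 5 (1.36%) lay below SPF pools 7 and 8 (1.41% and 1.61%), and the exact permutation test gave p = 0.0857. The ratio was 1.49. After thinning 482 cells met the rule, of which 340 were among the 729 members, so these shares rest partly on other cells. Of the members, 359 had no Cebpe UMI left.

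Among the Elane cells, the share of neutrophil progenitors overlapped between the housing groups. It was 9.87%, 11.8%, 20.4% and 17.2% in SPF pools 1, 2, 7 and 8, and 12.7%, 12.7%, 19.4% and 18.7% in CVT pools 3 to 6. The 4 pools of mice 1 to 10 were low and the 4 of mice 11 to 20 high, with both housing groups in each range. Within the pools of mice 1 to 10 both CVT pools lay above both SPF pools, and within the other set they lay between the SPF pools. The means were 15.9% ± 3.69 in CVT and 14.8% ± 4.85 in SPF (SD, n = 4; exact permutation test, two-sided p = 0.686). Permuted within the sets, the exact test gave p = 0.389. The Elane cells as a whole made up 18.99% ± 5.15 of CVT and 11.9% ± 1.62 of SPF cells, given as a description, with CVT pool 5 (13.1%) below SPF pool 8 (13.6%).

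**Figure D3:**
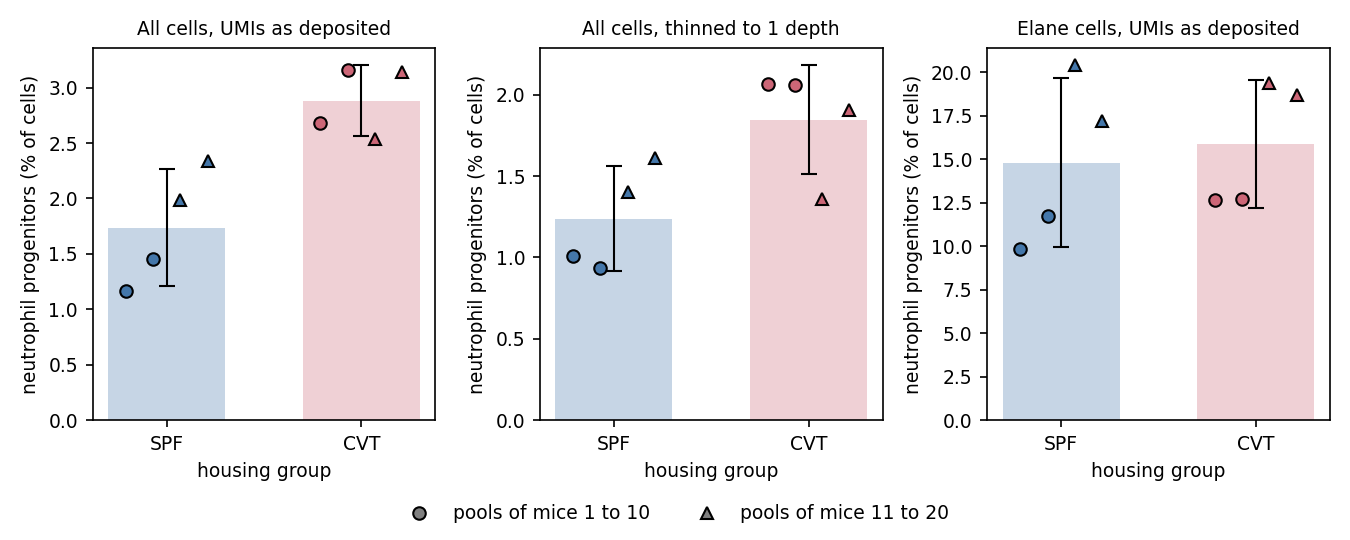
Neutrophil progenitors in percent of all cells as deposited, of all cells thinned to 2759 UMIs, and of Elane cells (vertical axes, from 0), with 1 point per pool, bars for the mean and error bars for the SD of 4 pools, and triangles for the pools of mice 11 to 20. The CVT pools lie above the SPF pools in the left panel (lowest CVT 2.53%, highest SPF 2.34%) and overlap them in the other panels.

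The share of neutrophil progenitors with a Camp, Ngp or Ltf UMI also went with the set of pools. After thinning to 3620 UMIs, it was 45.5%, 41.1%, 58.5% and 59.4% in SPF pools 1, 2, 7 and 8 and 40.8%, 36.4%, 65.5% and 62.1% in CVT pools 3 to 6. The pools of mice 11 to 20 were the high ones in either group. The means were 51.2% ± 14.7 in CVT and 51.1% ± 9.26 in SPF (SD, n = 4), and 88.8% and 93.9% without thinning. The planned exact test of this share counts in the adjustment over 3 values. Its p is not given and the values are a description, since the rule used these genes. Camp in erythroid cells moved with the sets too, from 92.3 CPM in the pools of mice 1 to 10 to 278 in those of mice 11 to 20, and in the class from 82.1 to 155. The part of free RNA in this share was not tested.

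No gene of the class passed between CVT and SPF mice in the test across genes. edgeR's quasi-likelihood test on the summed UMIs of each pool called 0 of 7644 genes (0%) at an adjusted p of 0.05, with 177 genes higher and 149 lower in CVT at an unadjusted p under 0.05. DESeq2 also called 0, with 57 higher and 66 lower at that level. The smallest adjusted p with edgeR was 0.292. The pools of the groups did not overlap for 241 genes (3.15%). A p that misses the threshold does not show that the levels were equal.

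Elane, a gene of the rule, is given as a description. In plain CPM its pools did not overlap, at 13880 to 16002 in SPF and 12245 to 13578 in CVT. The azurophil sums, at 42581 to 45918 and 40200 to 42562, were apart by a very narrow margin. Elane made up 32.2% of the mean sum, so the sums do not stand apart from the rule. In plain CPM the groups overlapped for Mpo, Ctsg and Prtn3. On the normalised scale the Elane pools overlapped, at 13793 to 15707 and 12389 to 13942.

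The azurophil enzymes outside the rule did not pass. On the normalised CPM scale of the edgeR fit, Ctsg was 6516, 6260, 6486 and 6352 in SPF pools 1, 2, 7 and 8 and 6847, 6404, 6469 and 6228 in CVT pools 3 to 6. The groups overlapped over a narrow range. The log2 fold change was 0.02 ± 0.06 (SE) for Ctsg, 0.01 ± 0.07 for Mpo, -0.06 ± 0.06 for Prtn3, -0.08 ± 0.06 for Ms4a3 and -0.13 ± 0.09 for Fcgr3, with an adjusted p of 0.9997 with edgeR for each of these 5 genes. Of 15 azurophil genes tested, Elane included, 4 were higher in CVT and the median log2 fold change was -0.04, beside 51.1% of all genes higher and a median of 0.0047.

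The genes with the smallest p are given as values that did not pass. Arl2bp, which binds a small GTPase, was 11.5, 18.8, 20.3 and 23.3 normalised CPM in SPF pools 1, 2, 7 and 8 and 36.9, 36.1, 37.9 and 35.8 in CVT pools 3 to 6, with the groups apart (log2 0.86 ± 0.18, adjusted p = 0.292 with edgeR). The linker histone gene Hist1h1c was 8.64, 16.7, 15.96 and 10.5 in the same SPF pools and 33.5, 31.8, 42.4 and 17.3 in the same CVT pools. CVT pool 6 lay closest to the SPF pools (log2 1.25 ± 0.27, adjusted p = 0.292 with edgeR). Hdac5 (log2 1.32), the basophil protease gene Mcpt8 (0.48) and the heat shock gene Hspa1a (2.56) completed the 5 higher genes.

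Hspa1a rested on few pools. It was 30.1 and 90.8 normalised CPM in CVT pools 3 and 4, 12.8 and 2.80 in CVT pools 5 and 6, and 2.88, 11.5, 0 and 6.40 in SPF pools 1, 2, 7 and 8. CVT pools 3 and 4 were high, and the others overlapped. The 5 lower genes were Itch, a ubiquitin ligase (log2 -0.81), the histone gene Hist1h2ae (-0.72), Cpa3 (-0.56), the lectin gene Mgl2 (-0.75) and the platelet chemokine gene Pf4 (-2.04). Itch was 28.8, 32.4, 36.3 and 25.03 in SPF pools 1, 2, 7 and 8 and 15.1, 15.7, 20.5 and 17.3 in CVT pools 3 to 6, with the groups apart (adjusted p = 0.574 with edgeR). Pf4 was 143 in SPF pool 8 and at most 23.1 in the other 7 pools, and without that pool its log2 value was 0.83.

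By lists, 0 genes passed in any of the 23. The AP-1 and immediate early genes had a median log2 of 0.64, with 12 of 12 tested genes higher in CVT, beside 51.1% of all genes tested. Pools were separate for 0 of the 12, beside 3.15% of all genes tested, so this count is near that share. Their summed CPM was 696 and 899 in CVT pools 3 and 4, 415 and 256 in CVT pools 5 and 6, and 337, 525, 263 and 407 in SPF pools 1, 2, 7 and 8. As for Hspa1a, CVT pools 3 and 4 were high and the rest overlapped. The erythroid markers had a median of 0.62 (8 of 9 higher) and the G2/M genes one of -0.19 (2 of 22 higher). The medians of lists with at least 10 genes tested other than AP-1 and G2/M lay between -0.11 (endoplasmic reticulum) and 0.04 (granulocyte transcription factors).

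The sets of pools differed more than the housing groups. With housing in the fit, edgeR called 71 of 7644 genes (0.929%) between the pools of mice 11 to 20 and those of mice 1 to 10, 37 higher (0.484%) and 34 lower (0.445%). Of these, 3 are genes of the rule (Camp, Ngp and Ltf), which leaves 68. The labels give the numbers of the mice but call neither set a batch, so mice, day and handling cannot be told apart. In 45 of the 71 genes the pools of the sets did not overlap (25 higher and 20 lower), against 436 of all genes tested (5.70%). The 71 were picked by a test of the same pools, so a higher share follows from that choice. Without SPF pool 8 there were 182 calls and without CVT pool 6 there were 26.

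Of 9 erythroid genes tested, the 4 haemoglobin genes were higher in the pools of mice 11 to 20 and none was lower. Only 5 of the 9 had a log2 value above 0, so the genes other than haemoglobin mostly went the other way, without passing. The list median was 0.18. The beta globin gene Hbb-bs was 2.88, 2.09, 4.37 and 19.1 normalised CPM in pools 1 to 4 and 118, 514, 113 and 166 in pools 5 to 8. Pools 5 to 8 were all high and CVT pool 6 the highest (log2 4.83 ± 0.39, adjusted p = 1.07e-09 with edgeR). Hba-a2 (log2 5.27), Hba-a1 (3.75) and Hbb-bt (3.72) went the same way, and these near-identical copies can share reads, so how the counts divide among them is uncertain. In erythroid cells, mean Hbb-bs moved from 144 to 1221 plain CPM between the sets, and in the class from 7.06 to 223. The part of free RNA from red cell precursors in the class was not tested.

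Of the 10 late neutrophil genes tested, 5 were higher and none lower, with a list median of 0.61 beside -0.0010 for all genes. S100a8 was 1322, 1539, 1224 and 1471 normalised CPM in pools 1 to 4 and 2407, 2044, 2455 and 2199 in pools 5 to 8. The sets were apart, and within each set CVT and SPF pools mixed (log2 0.71 ± 0.07, adjusted p = 2.45e-08 with edgeR). The difference was 0.72 among the CVT pools and 0.70 among the SPF pools. S100a8 was also higher in erythroid cells of that set, with mean plain CPM of 297 and 927, against 1392 and 2225 in the class, a larger difference in CPM but a smaller ratio. The part of free RNA in the gain was not tested.

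Retnlg, a granule-associated secreted protein of late neutrophils, was 20.2, 17.7, 10.7 and 17.8 normalised CPM in pools 1 to 4 and 132, 50.9, 251 and 47.7 in pools 5 to 8. The set of mice 11 to 20 was high but uneven (log2 2.66 ± 0.37, adjusted p = 4.53e-05 with edgeR). A Retnlg UMI was present in 34.0% of the class and 34.3% of erythroid cells. In erythroid cells its mean moved from 18.7 to 60.1 plain CPM between the sets, and in the class from 16.7 to 117. S100a9 (log2 0.67), Wfdc21 (0.68) and Slpi, a protease inhibitor (0.35), also passed, with pools that overlapped between the sets. Lyz2, lysozyme, was the azurophil gene that was higher (log2 0.58), while Calr was lower (-0.35), and the median of the 15 azurophil genes was 0.05. Mean Lyz2 moved from 44.6 to 111 plain CPM in erythroid cells and from 166 to 236 in the class. The part of free RNA in the gains of Retnlg and Lyz2 was not tested. The remaining named genes higher in that set were S100a6 (2.05), Lgals3, counted among the monocyte markers (2.10), and the RNA-processing gene Cpsf7 (0.89).

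Of 12 AP-1 and immediate early genes tested, 7 were lower in the pools of mice 11 to 20 (Fos, Fosb, Jun, Junb, Dusp1, Klf2 and Klf6), with a list median of -1.07. Jun was 95.1, 150, 191 and 254 normalised CPM in pools 1 to 4 and 110, 48.7, 74.0 and 96.6 in pools 5 to 8. CVT pools 3 and 4 were high, and SPF pool 1 lay within the range of the other set (log2 -1.17 ± 0.17, adjusted p = 6.87e-05 with edgeR). The difference was -1.52 among the CVT pools and -0.48 among the SPF pools, and whether these differ was not tested. For Dusp1 the differences were -1.57 and 0.08, and for Klf2 -1.59 and -0.09, so the SPF pools showed almost none for these genes. Junb was 49.0, 53.2, 75.8 and 75.5 in pools 1 to 4 and 43.7, 33.6, 36.3 and 40.2 in pools 5 to 8, so its sets were apart (log2 -0.79 ± 0.14, adjusted p = 0.00120 with edgeR).

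Of 11 heat shock genes, 3 were lower, namely Hspa1a (log2 -2.65), the abundant chaperone gene Hsp90ab1 (-0.31) and Hspa5 (-0.33), which is also an endoplasmic reticulum gene. Klf6 (-1.91), Myl10 (-1.34), 2900060B14Rik (-1.15), Xab2 (-0.86), Prmt7 (-0.59), Las1l (-0.59), Ptcd2 (-0.58), Pes1 (-0.50) and Hdac1 (-0.45) were the lower genes with the largest changes among those whose sets were apart, together with Junb. Alas1, a leading gene of the class, was also lower (-0.41), with the sets apart. Las1l and Pes1 serve the making of ribosomes. Nop56 (-0.36) was the single lower gene of the ribosome biogenesis list and Mcm7 (-0.38) that of the S-phase list.

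The same genes were compared in other cells. In all cells without 10 Elane UMIs, the mean log2 CPM (5 CPM added) moved the same way for 37 of the 37 higher and 33 of the 34 lower genes. The median change of the higher genes was 0.67 in the class and 0.52 in those cells, and that of the lower genes -0.56 and -0.34. The class values are edgeR log2 fold changes without the 5 CPM added, so the sizes cannot be set against each other. With 5 CPM added, Hbb-bs changed in the class by 4.07 among CVT and 4.25 among SPF pools, against 4.47 in the other cells. The cells come from the same 8 pools, so the agreement is a description of these pools. The share of all tested genes that moved the same way in both was not taken, so the counts cannot be read as particular to the called genes.

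**Figure D4:**
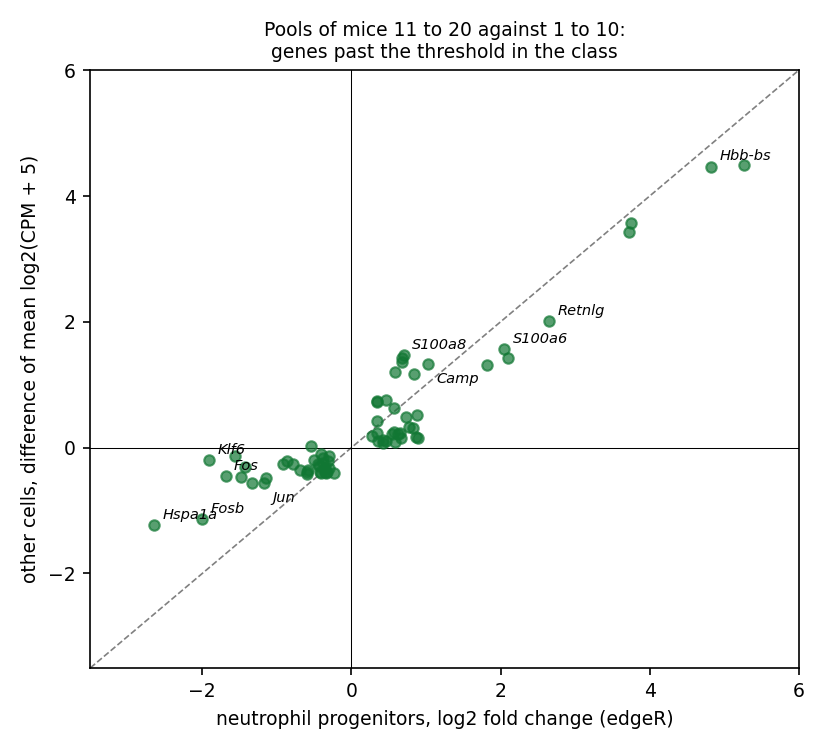
The 71 genes called between the pools of mice 11 to 20 and those of mice 1 to 10, each a point, with the edgeR log2 fold change in neutrophil progenitors (horizontal) and the difference of mean log2 CPM (5 CPM added) in cells without 10 Elane UMIs (vertical), and the dashed line marking equal values. Haemoglobin genes lie at the upper right (Hbb-bs 4.83 and 4.47), and Hspa1a at the lower left (-2.65 and -1.23).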

How the data were processed

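UMI counts of 29891 cells and 27998 genes from 8 pools were used as deposited; per the labels and the study's methods the authors made them with Cell Ranger (version not given in the sources used here) from 10x 3' v2 libraries, without normalization. The submitters' notes name mm9 without a role. Pools held 19041749 to 59812346 UMIs. Members and gene lists (23) were chosen with earlier results of these data known.

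Exact permutation tests compared the shares of the pools (70 regroupings, two-sided; Benjamini-Hochberg over 3 values). UMIs of the class were summed per pool and tested with edgeR 4.0.16 (TMM, filterByExpr on housing, glmQLFit and glmQLFTest, adjusted p 0.05), or DESeq2 1.42.0. The edgeR script was tested on simulated data. No pool was a copy of another of its group (chi-square per degree of freedom 1.35 to 4.12). Values with ± are SD over pools or, for log2 fold changes, SE.

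Named genes are those of the rule and markers, up to 4 with the highest mean CPM per list and any called, the 10 largest changes per direction past the threshold with separate pools (or, if under 5 pass, the 5 with the smallest p), and the 20 leading genes; the level of 1 gene is not reported here. Genes with correlations, free RNA levels and marker shares were picked later, with values seen, as were the motifs. Promoters were first searched over 300 bases.

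Scrublet (scanpy 1.11.5) marked 92 cells (0.308%) as doublets, too few for a working caller, so no cell was removed. Doublets among the Elane cells were thus not resolved. Alternatives were thinning (seed 1), other thresholds, a cell filter (1000 genes, 10% mitochondrial), doublet removal, no low-count filter, RLE, DESeq2, a term for pool set or housing, and each pool left out. Other tools were R 4.3.3, limma 3.58.1, matplotlib 3.10.9, pandas 2.3.3, scipy 1.17.1, numpy 2.4.6 and Python 3.11.15.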

Additional observations from a re-analysis of the deposited data

Results flagged for a closer look

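Each of 39 values was examined within the 4 SPF and the 4 CVT pools (78 groups) for a pool far from the rest by Dixon's ratio, which chance alone passes in about 1 of 20 groups. There were 4 such pools, about as many as chance gives. In SPF pool 8, Pf4, a platelet chemokine, was at 143 normalised CPM in neutrophil progenitors, against 2.88 to 13.6 in the other SPF pools. The megakaryocyte markers, of which Pf4 is 1, summed to 290.1 plain CPM in the same pool, against 105 to 129.

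Fcgr3 was at 194 normalised CPM in CVT pool 4, against 223 to 227 in the other CVT pools. The basophil and mast cell markers summed to 241 plain CPM in CVT pool 5, against 283 to 290.1 in the others. The origin of these differences was not tested.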

How the results depend on the processing

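Among all cells, the CVT minus SPF difference in the share of neutrophil progenitors, 1.14 percentage points, stayed above 0 in every alternative run, at p = 0.0286 (exact permutation tests) with other Elane and granule limits, the cell filter and either removal of doublets. It was 0.608 after thinning (p = 0.0857), 0.695 after thinning with an Elane threshold of 3 and a granule limit of 9 (p = 0.0571) and 1.14 permuted within pool sets (p = 0.0556), all by exact permutation tests. Leaving out each pool gave 0.954 to 1.34, with p = 0.0571 without any of CVT pools 3, 4, 5 or 6, by exact permutation of 3 against 4 pools.

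Among Elane cells the difference of 1.06 turned to -2.66 (thinned) and -1.32 (thinned, lower limits), and ranged from -0.583 to 2.93 over left-out pools, negative without SPF pool 1 or CVT pool 5. For the share with a Camp, Ngp or Ltf UMI, 0.0530 became -5.09 without thinning, -0.0398 with a granule limit of 10, -0.0618 without Scrublet doublets and -0.582 without the 5% of cells with the highest Scrublet scores, an alternative chosen after seeing the data (a version at 4% was run before it and replaced). Over left-out pools it ranged from -4.71 to 4.99, negative without SPF pool 1 or 2 or CVT pool 5 or 6. The cause of these turns was not tested. No value of the share among Elane cells passed 0.05.

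For CVT against SPF, edgeR called 0 genes in the alternatives other than no filter on low counts (21 genes, 15 higher and 6 lower) and, over left-out pools, 0 to 1 (Hist1h1c without CVT pool 6). The calls with no filter included Arl2bp, Hist1h1c, Hspa1a, Cpa3 and Pf4, which did not pass in the main fit. Pf4 (-2.04) ranged from -2.37 to 0.826 over left-out pools, above 0 without SPF pool 8. For the sets of pools the 71 calls became 26 with DESeq2, 138 with no filter and 14 in thinned cells, of which 26, 71 and 13 were among the 71. The near-even split of 37 higher and 34 lower became 17 and 9 with DESeq2, 75 and 63 with no filter and 11 and 3 in thinned cells. Without CVT pool 6 it was 20 higher and 6 lower. Over left-out pools the calls ranged from 26 to 182: 112 without SPF pool 1, 43 without CVT pool 3, 34 without CVT pool 4, 41 without CVT pool 5, 26 without CVT pool 6, 42 without SPF pool 7 and 182 without SPF pool 8. Of 552 refits of 34 called genes named, which leave out Alas1, Camp, Ngp and Ltf, 438 still passed, 114 did not and 0 changed sign. While 11 genes passed in each, some passed far less often. These were 2900060B14Rik (6 of 15 refits), Cpsf7 (7 of 15), Mcm7 and Ptcd2 (7 of 17 each), Nop56 (8 of 17) and Slpi, Pes1 and Prmt7 (9 of 17 each). The groups share no replicate number, so single pools were not paired. The sets of pools, which hold both groups, were used as a block instead, with 0 genes called for CVT against SPF. With 22 to 132 cells a pool, genes of few UMIs could not be compared.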

Other observations

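Fcnb, which is made early in specific granule formation, was 8.80, 51.5, 92.3 and 81.6 plain CPM in the neutrophil progenitors of SPF pools 1, 2, 7 and 8 and 32.9, 50.3, 55.2 and 37.0 in CVT pools 3 to 6. SPF pool 1, with 22 cells, was the lowest, and the groups overlapped. Alas1 was 587 CPM in SPF pool 1 and 273 to 439 in the other pools, with its lowest values, 298 and 273, in CVT pools 5 and 6.

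Cells kept outside by a single part of the rule differed in their granule genes. The 200 Elane cells without Cebpe and Irf8 had a median of 41 Elane and 6 Ms4a3 UMIs, against 208 and 28 in the class, at a median depth of 12326 UMIs. The 251 cells kept out by 1 Irf8 UMI had medians of 123 Elane and 17 Ms4a3 UMIs. These lay between the class and the 727 cells with 2 or more Irf8 UMIs that met the rest of the rule (111 and 13). The 118 cells kept out by 30 or more UMIs of Camp, Ngp and Ltf lay mostly far above that limit, with a median of 1173.5. They had a median of 11 Mpo and 4 Ctsg UMIs, against 103 and 95 in the class, but of 10 Cebpe UMIs against 3. The 3 of them with 30 to 39 had medians of 75 Mpo and 31 Ctsg UMIs.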
